A study of Arabidopsis thaliana with 18 samples.

Results

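Cultures given Methylene Violet (MV) were set directly against cultures given Indigo Carmine (IC), both of them dyes that give singlet oxygen in the light, and this was the 1 pair of dyes compared. The comparison held the 3 arrays of Arabidopsis cell suspension cultures titled for MV and the 3 titled for IC, which are 6 of the 18 arrays of the series, and no control array entered the contrast. Both dyes were given at 0.5 µM to light-grown cultures of Arabidopsis thaliana, and RNA was hybridized to Affymetrix ATH1 arrays, which hold a set of short probes (a probe set) for most genes of this plant. The other arrays were 3 controls prepared with the MV and IC cultures, and 9 arrays of cultures given Rose Bengal, given hydrogen peroxide, or left as their controls. The titles of the controls name the MV and IC culture of the same number, so that MV and IC array 1, 2 or 3 form a pair. The sample labels call the first dye Methyl Violet and the study's text Methylene Violet, which are names of different compounds. The abbreviation MV is used below for what these arrays received. The labels name both a 30 min incubation in high light and a longer one in the dark, without saying which a given array had. The study's methods describe 30 min of illumination. The cells are a suspension culture of the Columbia ecotype and the replicates are stated to be biological, so the tests cover the spread between cultures of that line.

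Singlet oxygen is an excited form of oxygen made when a dye or chlorophyll passes absorbed light energy on to it, and in plant cells it oxidizes lipids and proteins close to where it forms. The study used dyes of different cell location to ask whether the place of formation matters, and MV and IC are the dyes in it other than Rose Bengal. The heat shock response is a general answer of plant cells to unfolded protein. Heat shock factors and partner regulators such as DREB2A switch on genes for chaperones, among which the small heat shock proteins hold unfolded proteins in solution and HSP70, HSP90 and HSP101 refold or disentangle them. Chloroplasts and mitochondria keep small genomes of their own, with genes for parts of the photosystems, the respiratory chain and their ribosomes. No sequence of these genes or of the array's probes is shown.

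No transcript passed the test between the dyes. Of 22746 probe sets tested with limma, 0 passed an adjusted p of 0.05 (0% of those tested), and 888 (3.9%) had an unadjusted p under 0.05, of which 400 (1.76%) were higher and 488 (2.15%) lower in MV than in IC. The smallest adjusted p was 0.0823, for DREB2A, and the next was 1. The absolute difference had a median of 0.11 on the log2 scale, and 19 probe sets differed by more than 1, of which 14 were higher and 5 lower in MV. How small a difference could be seen is given by the intervals. The 95% interval of MV minus IC lay wholly within -1 and 1, or less than 2-fold either way, for 21968 probe sets (96.6%), and wholly within 1.5-fold either way for 71.7%. For the rest, larger differences are not excluded by these arrays. MV lay above IC in all 3 pairs for 2814 probe sets (12.4%) and below IC in all 3 pairs for 2810 (12.4%). All MV arrays lay above all IC arrays for 808 (3.55%) and below them for 719 (3.16%). With 3 pairs, an exact two-sided permutation test of a single transcript cannot go below p = 0.25, and with 3 against 3 unpaired arrays it cannot go below 0.1. Single transcripts are therefore given with the 95% interval of the limma fit, on the log2 scale. Where an SE is given, it is also that of the limma fit. Both rest on the residual spread over all arrays of the series, not on the spread of the 3 paired differences alone. An interval that leaves out 0 stands for an unadjusted p under 0.05, and every transcript other than DREB2A had an adjusted p that rounded to 1.

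The pairs did not all differ in the same way, and MV array 3 stood apart from the other MV arrays. Across probe sets the MV minus IC difference of pair 1 correlated with that of pair 2 (r = 0.45), while pair 3 correlated with pairs 1 and 2 at -0.30 and -0.15. These correlations are over 22746 probe sets measured on the same arrays and carry no test. The spread of the differences was 0.39 (SD) in pair 3, against 0.31 and 0.30 in pairs 1 and 2. MV array 3 correlated with the other MV arrays at 0.973 to 0.977, whereas the IC arrays correlated with each other at 0.985 to 0.987. In the mean correlation with the other arrays of the set, MV array 2 (0.982) was nearly as low as MV array 3 (0.9811). The rest lay at 0.9855 to 0.9878. The 25S ribosomal RNA control probe set read 12.42 on that array and 11.25 to 11.90 on the other 8 arrays of the set. The main list counts below are therefore also given for pairs 1 and 2.

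**Figure D1:**
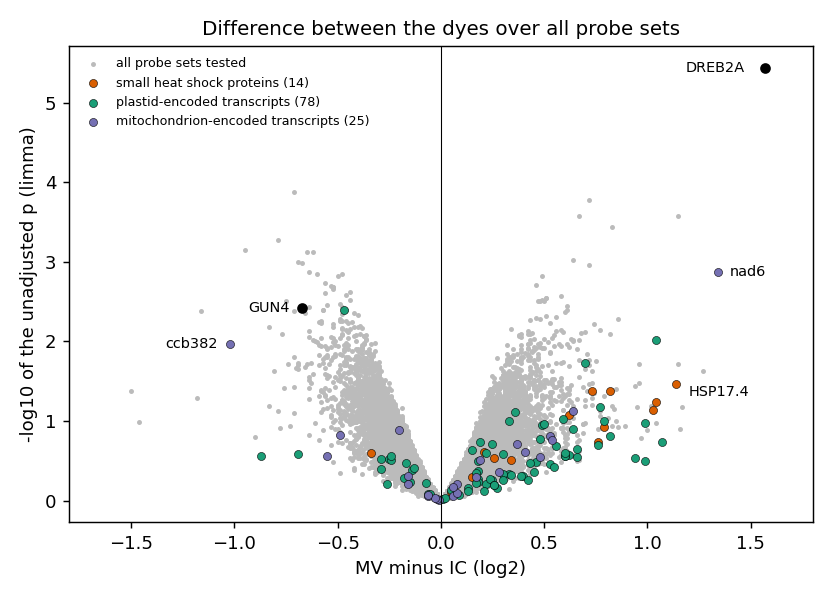
Difference between MV and IC (log2, horizontal axis) against -log10 of the unadjusted limma p (vertical axis), 1 point for each of the 22746 probe sets. DREB2A lies alone at the top right, 13 of the 14 small heat shock protein probe sets lie to the right of 0, and GUN4 and ccb382 lie on the left.

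DREB2A (AT5G05410), a transcription factor of the drought and heat response that switches on the heat shock factor HSFA3, had the smallest p and the largest difference of all probe sets. Its log2 values were 7.15, 8.67 and 7.96 in MV arrays 1 to 3, against 5.38, 7.42 and 6.26 in IC arrays 1 to 3 and 5.98, 7.69 and 6.62 in the controls. In every pair the MV array was the highest and the IC array the lowest of the 3 arrays, while MV array 1 lay below IC array 2, so the groups overlapped when the pairs were ignored. The paired differences were 1.78, 1.24 and 1.70. Their mean was 1.57 ± 0.20 (SE), or 2.98-fold higher with MV, with a 95% interval of 1.14 to 2.01 (adjusted p = 0.0823 by limma with Benjamini-Hochberg adjustment). MV lay 1.17 above and IC 0.41 below the mean of the controls. The adjusted p thus missed the threshold of 0.05. It was 0.0314 with a trended and robust prior in limma, 0.746 when only the 6 arrays were fitted, 1 without the pairing or with the pairing as a random effect, and 0.999, 0.783 and 0.258 without pair 1, 2 or 3. In the other set, which had its own controls, DREB2A read 10.09, 8.84 and 10.46 with Rose Bengal and 7.26, 6.84 and 7.15 with hydrogen peroxide, against 4.48, 4.04 and 4.94 in those controls.

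MBF1C, a coactivator of the heat response, was the other regulator whose interval left out 0. It read 11.02, 11.94 and 10.64 in MV arrays, against 9.78, 11.18 and 10.45 in IC arrays and 9.69, 11.13 and 10.78 in controls. MV was the higher dye in every pair, by 1.24, 0.76 and 0.19, and by 0.73 ± 0.30 in the mean (SE, 1.66-fold, interval 0.07 to 1.39). The probe set shared by AT2G40350 and DREB2C, relatives of DREB2A, differed by 0.37 (interval -0.02 to 0.76) and was higher in pairs 1 and 2 only. HSFA2, a heat shock factor that prolongs heat tolerance, read 4.17, 7.18 and 4.23 in MV arrays, against 3.24, 5.40 and 4.40 in IC arrays. It was higher with MV in pairs 1 and 2, by 0.93 and 1.78, and differed by -0.17 in pair 3, which left a mean of 0.85 with an interval from -0.19 to 1.88. HSFA8 differed by 0.13, with an interval from -0.28 to 0.53. Of the 21 heat shock factors listed, 5 could be named. All 5 carry names only because the study tabulated them as changed by Rose Bengal or hydrogen peroxide, so they are no independent sample of the family. All 5 had a difference above 0 (50.7% of all probe sets did), with a median of 0.18, and none had a p under 0.05.

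The small heat shock proteins lay higher with MV as a group, though no member passed the adjusted test. Of 16 listed genes, 14 probe sets could be named, of which 13 had a difference above 0 (50.7% of all probe sets did) and 11 were higher with MV in all 3 pairs (12.4% of all probe sets). In pairs 1 and 2 taken alone, 12 of the 14 were higher in both (32.3% of all probe sets). An unadjusted p under 0.05 was reached by 3, all higher. That count was 8 when only the 6 arrays or only the 9 arrays of the set were fitted, and 0 without the pairing, with the pairing as a random effect on the 6 arrays, or without pair 1 or pair 2. The median difference was 0.68, against 0.003 over all probe sets, and it was 0.52, 0.69 and 0.57 in pairs 1, 2 and 3. Part of the list carries gene names only because the study tabulated those transcripts as changed by Rose Bengal or hydrogen peroxide. The 4 such members had a median difference of 0.93, and the 10 named by the array's annotation had one of 0.30, with 9 of 10 above 0. Set against the controls of the same pairs, the median member lay at 0.33, 0.46 and 0.002 with MV and at -0.05, -0.10 and -0.38 with IC.

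The levels varied more between replicate numbers than between dyes. HSP17.4 (AT3G46230), a cytosolic small heat shock protein, read 8.04, 11.31 and 9.44 in MV arrays, against 6.86, 10.02 and 8.50 in IC arrays and 6.94, 10.12 and 10.41 in controls. It was lowest in culture 1 and highest in culture 2 with either dye. MV exceeded IC by 1.18, 1.29 and 0.94 within the pairs, a mean of 1.14 (2.20-fold). The limma fit to all arrays of the series gave an SE of 0.48 and an interval of 0.10 to 2.18 (unadjusted p = 0.0347). Fitted to only the 6 MV and IC arrays, limma gave an unadjusted p of 0.000113 (adjusted p = 0.878). The unadjusted limma p was 0.272 without the pairing and 0.195 with the pairing as a random effect on the 6 arrays. HSP17.6II, another cytosolic form, read 5.20, 8.08 and 6.73 in MV arrays, against 4.53, 6.91 and 5.43 in IC arrays and 4.04, 7.38 and 6.82 in controls. Its difference was 1.04 (2.06-fold, interval -0.04 to 2.12). HSP17.6A read 6.30, 10.14 and 8.51 in MV arrays, against 5.64, 9.45 and 7.40 in IC arrays, a difference of 0.82 (interval 0.03 to 1.60). Both had the order of HSP17.4, with MV higher in each pair by less than the range over the 3 arrays of either dye. The probe set shared by AT1G59860 and AT1G07400 differed by 0.73 (interval 0.03 to 1.43), AT2G29500 by 1.03 (interval -0.11 to 2.17) and AT1G54050 by 0.79 (interval -0.23 to 1.82). AT5G51440 was higher in pairs 1 and 2 but not in pair 3 (-0.31), for a mean of 0.34. The member with a difference below 0 was AT4G21870, at -0.34 (interval -0.97 to 0.28). Over the list the median range among the 3 MV arrays was 2.56 and among the 3 IC arrays 2.30, several times the median difference between the dyes.

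**Figure D2:**
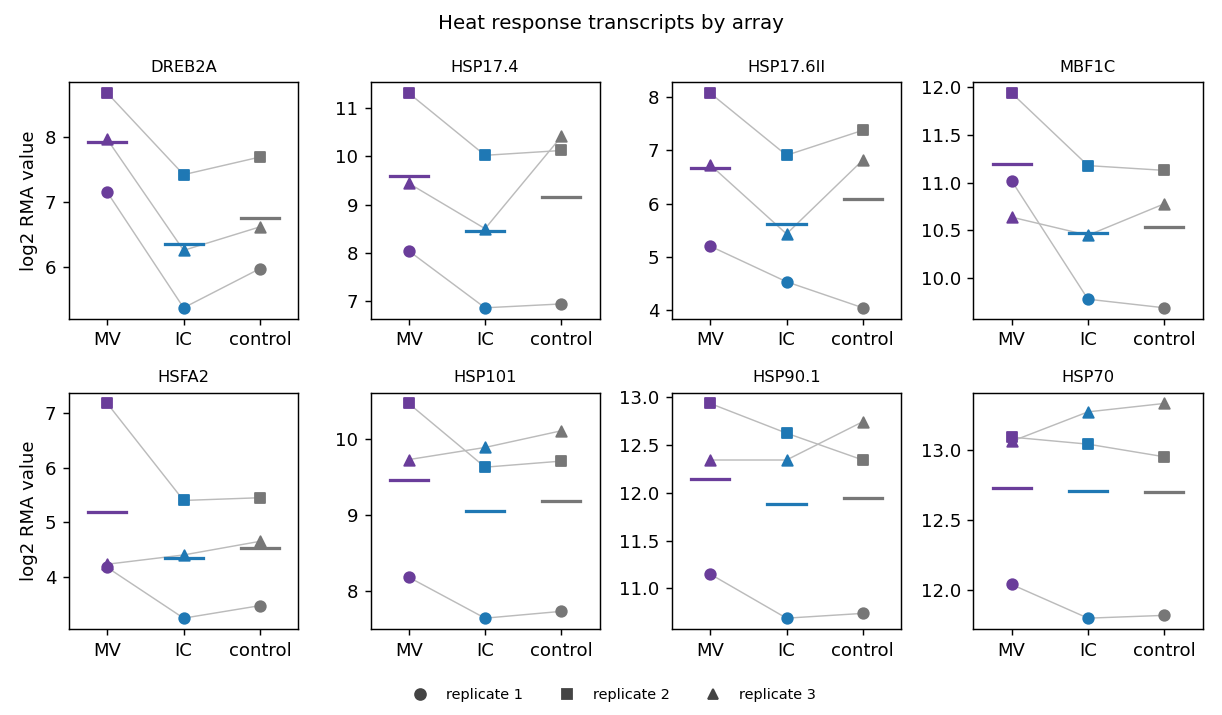
Log2 RMA values (vertical axes) of 8 heat response transcripts on each array, grouped by MV, IC and control. Symbols mark the replicate number, grey lines join arrays of one number and bars are the means of 3 arrays. DREB2A, HSP17.4 and HSP17.6II are lower in IC than in MV along every line, whereas HSP70 lies within 0.25 of the other dye on every line.

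The large chaperones had smaller differences, with intervals that held 0. HSP70 (AT3G12580), a cytosolic chaperone strongly induced by heat, read 12.04, 13.09 and 13.06 in MV arrays, against 11.80, 13.04 and 13.27 in IC arrays and 11.82, 12.95 and 13.33 in controls. The difference was 0.03 with a 95% interval from -0.52 to 0.57, so a change of 2-fold in either direction lay outside it. The highest mean level of any probe set was 13.2, so HSP70 lay near the top of the range. The median level was 10.4 for the HSP70 list and 11.5 for the HSP90 and HSP100 list, against 6.76 for the small heat shock proteins. Whether differences read smaller at such high levels was not tested. HSP90.1 read 11.15, 12.93 and 12.34 in MV arrays, against 10.69, 12.62 and 12.34 in IC arrays, a difference of 0.26 (interval -0.39 to 0.91). HSP101, the disaggregase needed for heat tolerance, differed by 0.40 (interval -0.35 to 1.16), with 0.53 and 0.83 in pairs 1 and 2 and -0.16 in pair 3. The medians over the named members were 0.07 for 6 of 11 HSP70 genes, 0.23 for 4 of 9 HSP90 and HSP100 genes and 0.26 for 3 of 8 chaperonins, and none of these had a p under 0.05. Among 9 cochaperones and heat-tolerance genes the median was 0.33, with 0.53 and 0.55 in pairs 1 and 2 and -0.24 in pair 3. HSA32, needed to keep acquired heat tolerance, was higher with MV in every pair, by 0.53, 0.41 and 0.37 (mean 0.44, interval 0.04 to 0.83). Fes1A, a partner of HSP70, differed by 0.47 (interval -0.06 to 0.99) and Hop3, which links HSP70 to HSP90, by 0.33 (interval -0.63 to 1.28). Both were higher in pairs 1 and 2 and lower in pair 3.

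Taking the heat lists as one, 44 probe sets could be named for 82 listed genes. Of the 44, 38 had a difference above 0 (50.7% of all probe sets did). In all 3 pairs 18 were higher with MV and 1 was lower (12.4% of all probe sets either way). In pairs 1 and 2, 34 of the 44 were higher in both and 1 was lower in both (32.3% and 30.8% of all probe sets). The study's tables of changed transcripts alone named 23 of the 44, among them every HSP90, HSP100 and heat shock factor member. Of these 23, 20 were above 0 (median 0.20), and of the 21 named by the array's annotation 18 were (median 0.325). An unadjusted p under 0.05 was reached by 6, all higher (1.76% of all probe sets). That count was 12 and 13 on the 6 and the 9 arrays, 1 without the pairing, with it as a random effect, or without pair 1 or pair 2, and 10 without pair 3. The median difference was 0.26, with 0.34 and 0.44 in pairs 1 and 2 and 0.15 in pair 3. In contrast, the chaperones of the endoplasmic reticulum, which answer unfolded protein in the secretory pathway, had a median of -0.07 over 8 probe sets, none with a p under 0.05. Among the heat transcripts, HSP70 already had high values in the control cultures of the MV and IC set. Not all lists were high there. The medians in controls 1 to 3 were 5.67, 7.65 and 7.03 for the small heat shock proteins and 5.68, 6.56 and 5.80 for the heat shock factors. HSP70 read 11.82 to 13.33 in these controls, against 7.40 to 8.66 in the controls of the Rose Bengal and hydrogen peroxide set. What differed between the sets beside the treatments cannot be told apart.

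**Figure D3:**
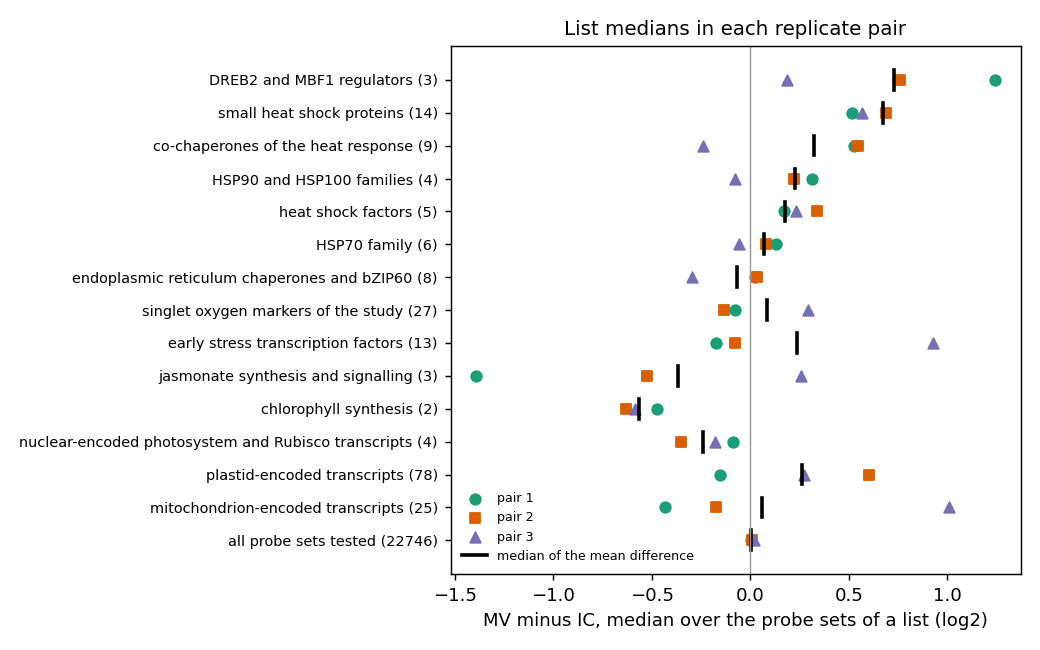
Median MV minus IC difference (log2, horizontal axis) over the probe sets of each list, with the number of probe sets in parentheses. Symbols give the 3 pairs and the black bar the median of the mean difference. The small heat shock proteins lie at 0.52 to 0.69 in every pair, while the early stress transcription factors and the mitochondrial transcripts lie below 0 in pairs 1 and 2 and at 0.93 and 1.01 in pair 3.

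The early stress genes gave a different picture, since their difference rested on pair 3. The 13 early stress transcription factors, of the zinc finger, WRKY, ERF and NAC families that are induced within minutes of wounding or oxidative stress, had medians of -0.18 and -0.08 in pairs 1 and 2 and of 0.93 in pair 3. All 13 were above 0 in pair 3, against 5 in pair 1 and 5 in pair 2. Of the 13, 11 carry gene names only because the study tabulated them as changed by Rose Bengal or hydrogen peroxide. WRKY53, a regulator of senescence and defence, read 8.39, 6.89 and 7.93 in MV arrays, against 8.27, 6.96 and 5.42 in IC arrays and 7.71, 6.45 and 6.61 in controls. IC array 3 was the lowest of the 9 arrays, and the difference of 2.52 in pair 3 stood beside 0.12 and -0.08 in the others (mean 0.85, interval 0.05 to 1.66). STZ, a zinc finger repressor of the salt and drought response, likewise read 7.67 in IC array 3, against 10.09 and 9.04 in IC arrays 1 and 2. Its MV values were 9.23, 8.25 and 9.64, which gave differences of -0.86, -0.79 and 1.97. WRKY40, a repressor of immune genes, differed by -0.57, -0.04 and 1.99. Over the list the IC arrays lay 0.33 and 0.14 above their controls in pairs 1 and 2 and 0.48 below in pair 3, whereas the MV arrays lay 0.12 and 0.49 below and 0.47 above.

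RHL41 and WRKY33 were higher with MV in every pair. RHL41 (ZAT12), a zinc finger factor of the oxidative stress response, read 8.41, 8.38 and 8.26 in MV arrays, against 7.92, 8.36 and 6.67 in IC arrays and 8.03, 8.13 and 7.52 in controls. The difference was 0.70 ± 0.22 (SE, 1.62-fold, interval 0.22 to 1.18), of which 1.59 came from pair 3 and 0.02 from pair 2. WRKY33, needed for defence against necrotrophic fungi, read 8.82, 7.94 and 7.50 in MV arrays, against 8.43, 7.12 and 6.54 in IC arrays, and was higher with MV by 0.38, 0.83 and 0.95 (mean 0.72, interval 0.15 to 1.29). Of the 13 factors, 3 had an unadjusted p under 0.05, all higher (1.76% of all probe sets), and 4 were higher with MV in all pairs (12.4%). The first count was 0 without the pairing and 1 with it as a random effect. Without pair 3 it was 0 higher and 2 lower, and in pairs 1 and 2 alone 4 factors were higher and 7 lower with MV in both (32.3% and 30.8% of all probe sets).

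The transcripts that the study used as markers of singlet oxygen had directions that changed with the pair. This list was chosen by the study and is no independent evidence of a direction. Of 27 markers, 18 had a difference above 0 (50.7% of all probe sets did). In all pairs 3 were higher and 3 lower (12.4% of all probe sets either way). The median was 0.08, with -0.08, -0.14 and 0.29 in pairs 1, 2 and 3. In pairs 1 and 2 alone 5 were higher and 14 lower with MV in both (32.3% and 30.8% of all probe sets). SIP4, a protein kinase, was the only one of the 27 with an unadjusted p under 0.05 (3.9% of all probe sets). It read 5.0, 4.90 and 5.61 in MV arrays, against 5.42, 5.86 and 5.94 in IC arrays, a difference of -0.57 (interval -1.11 to -0.02). ERF13 read 5.53, 5.23 and 5.83 in MV arrays, against 7.51, 5.88 and 4.76 in IC arrays, and CAF1a, a deadenylase of stress transcripts, 6.57, 5.95 and 6.96 against 7.82, 6.82 and 6.04. For both genes IC array 1 was the highest of the 9 arrays, and MV was the lower dye in pairs 1 and 2 and the higher one in pair 3. LOX4 and MYC2, of jasmonate synthesis and signalling, differed by -1.39 and -1.51 in pair 1 and by 1.05 and 0.05 in pair 3. The 11 cell death and resistance transcripts tabulated by the study had a median of 0.07. The probe set shared by AT5G41750 and AT5G41740, of the immune receptor type, read 4.09 to 4.16 in MV arrays, against 3.76 to 3.82 in IC arrays (0.33, interval 0.06 to 0.60), with 3.78 to 4.23 in controls, all under the median level of 5.06 over all probe sets.

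Detoxification genes had medians near 0 over all members, most of them of low signal. The median difference was -0.01 over 24 glutathione transferases and 0.02 over 49 UDP-glycosyltransferases, 2 enzyme families that attach glutathione or sugar to reactive and foreign compounds. Among members at or above the median level of all probe sets, 0 of 8 and 1 of 11 had a difference above 0, with medians of -0.13 and -0.17, against -0.04 over all probe sets at that level. Over all probe sets of any level 50.7% had a difference above 0. Each family had 1 member with an unadjusted p under 0.05, in both cases lower with MV. That is 1 of 24 and 1 of 49, beside 2.15% of all probe sets. GSTU27 read 6.29, 6.51 and 5.70 in MV arrays, against 6.67, 6.93 and 6.27 in IC arrays (-0.46, interval -0.80 to -0.12), and was lower in every pair. UGT78D1, a flavonol rhamnosyltransferase, differed by -0.54 (interval -1.05 to -0.03), of which -1.33 lay in pair 3.

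The few nuclear genes of chlorophyll synthesis and light harvesting that could be named here lay lower with MV in every pair. GUN4, which activates the magnesium chelatase of chlorophyll synthesis, read 4.66, 3.62 and 4.62 in MV arrays, against 5.17, 4.41 and 5.33 in IC arrays and 5.06, 4.72 and 4.90 in controls. The difference was -0.67 ± 0.19 (SE, 1.59-fold lower with MV, interval -1.08 to -0.26), with -0.51, -0.79 and -0.71 in the pairs. The mean level of GUN4 lay under the median of all probe sets. PORB, a protochlorophyllide oxidoreductase, read 6.78, 6.04 and 6.80 in MV arrays, against 7.23, 6.52 and 7.26 in IC arrays and 7.22, 7.00 and 6.66 in controls. It differed by -0.44, -0.48 and -0.47 in the pairs (mean -0.46, interval -0.91 to -0.02). MV array 2 was the lowest of the 9 arrays for either gene, and MV was below IC in each pair by a like amount. These were the 2 members that could be named of 9 listed. GUN4 carries a gene name only because the study tabulated it as changed by Rose Bengal or hydrogen peroxide. Only 4 genes of the light-harvesting and photosystem list could be named (LHCB4.1, LHCB4.2, LHCB4.3 and PSB27). They were also lower with MV in all 3 pairs (12.4% of all probe sets), with a median of -0.24 and no p under 0.05. Other nuclear photosynthesis genes were not covered. LHCB4.3, a minor antenna protein of photosystem II, came closest at -0.28 (interval -0.59 to 0.03).

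**Figure D4:**
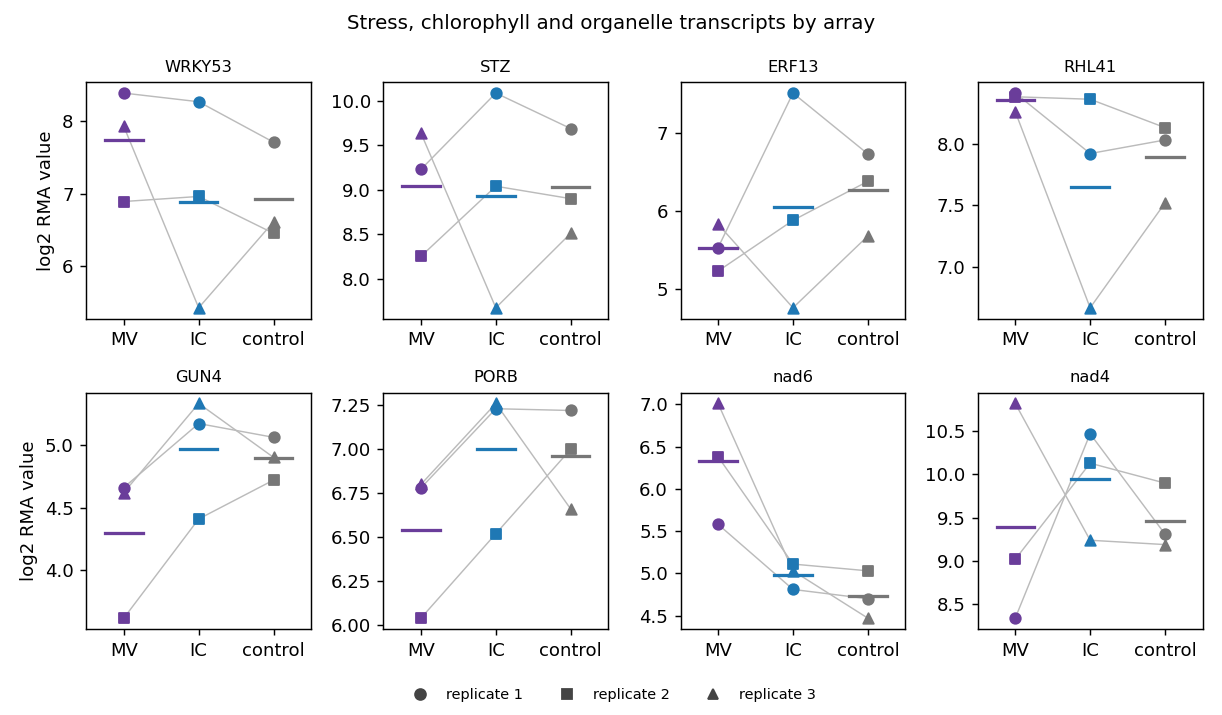
Log2 RMA values (vertical axes) of 8 stress, chlorophyll and organelle transcripts on each array, grouped by MV, IC and control, with symbols, lines and bars for replicate numbers, arrays of one number and means. IC array 3 is low for WRKY53 and STZ, GUN4 and PORB are lower in MV than in IC along every line, nad6 is higher in MV than in IC along every line, and MV array 3 is the highest array for nad4.

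The plastid genome was represented by 78 probe sets. With cRNA made by a 3′ in vitro transcription kit, which starts from poly(A) tails, the values follow the tailed part of these transcripts, which is a small one for plastid and mitochondrial RNA. MV lay above IC for 61 of the 78, with a median of 0.26, but the pairs disagreed, at -0.16, 0.60 and 0.27, and 26, 63 and 55 probe sets were above 0 in pairs 1, 2 and 3. In all 3 pairs 11 were higher and 2 lower with MV, close to the 12.4% of all probe sets for the first. In pairs 1 and 2 alone 23 of 78 were higher in both, or 29.5%, beside 32.3% of all probe sets, and 12 were lower. The median level on each array was 7.27, 7.51 and 7.17 with MV, against 7.35, 6.38 and 6.76 with IC and 5.81, 6.37 and 7.78 in the controls. These medians thus spanned more among the controls than between the dyes. By function, the median difference was 0.54 for 20 ribosomal protein probe sets, 0.36 for the cytochrome b6f complex, 0.29 for the ATP synthase, 0.27 for photosystem I, 0.15 for the NDH complex, 0.09 for the RNA polymerase and 0.09 for photosystem II. These medians moved with the pair left out. They then ran from 0.22 to 0.82 for the ribosomal proteins, 0.003 to 0.80 for cytochrome b6f, 0.11 to 0.51 for the ATP synthase, 0.08 to 0.78 for photosystem I, -0.25 to 0.19 for the NDH complex, -0.20 to 0.40 for the RNA polymerase and -0.05 to 0.22 for photosystem II.

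Of the 78 plastid probe sets 3 had an unadjusted p under 0.05, a share like the 3.9% of all probe sets, and they are described as single transcripts. rpl36, a ribosomal protein gene, read 6.55, 7.09 and 7.60 in MV arrays, against 6.59, 6.08 and 5.45 in IC arrays and 6.26, 6.43 and 7.36 in controls (1.04, interval 0.30 to 1.78), with no difference in pair 1. petN, of the cytochrome b6f complex, read 5.28, 6.08 and 6.35 in MV arrays, against 5.21, 5.25 and 5.13 in IC arrays (0.70, interval 0.14 to 1.27). psbL, a small subunit of photosystem II, was the one lower with MV. It read 7.77, 7.71 and 7.64 in MV arrays, against 8.44, 7.93 and 8.15 in IC arrays and 8.03, 7.62 and 7.84 in controls, a difference of -0.47 ± 0.13 (SE, interval -0.76 to -0.18) in which all MV arrays lay below all IC arrays. Some probe sets had a single array far from the rest. ndhA of the NDH complex read 4.44 in MV array 3, against 6.51 to 8.36 on the other 8 arrays of the set. psaC of photosystem I read 8.22 there, against 4.66 to 7.08 on the others. Beside these, rpl22 was higher with MV by 1.13, 1.95 and 0.12, but its interval ran from -0.57 to 2.71.

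**Figure D5:**
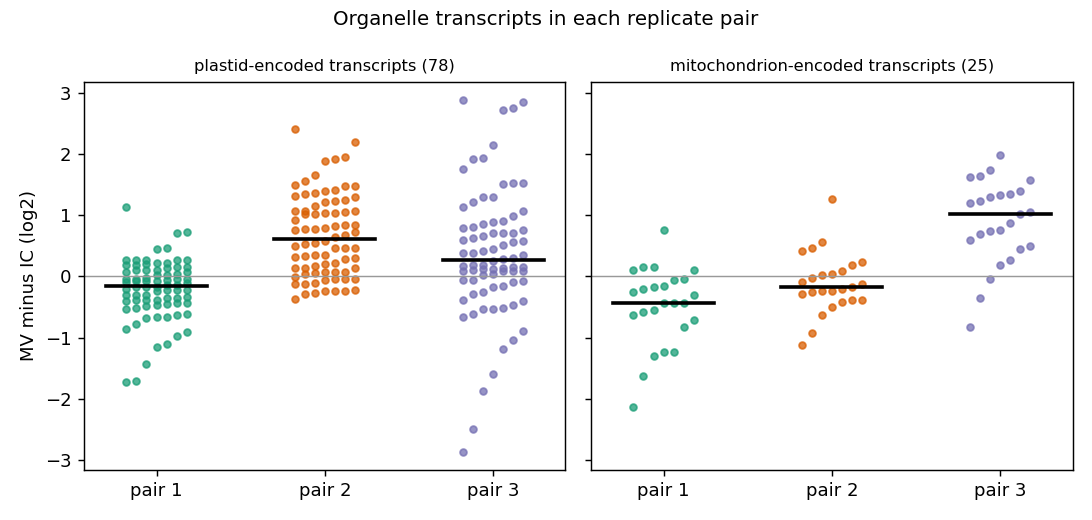
MV minus IC difference (log2, vertical axis) of each plastid-encoded (left) and mitochondrion-encoded (right) probe set in pairs 1, 2 and 3, with the median as a bar. The plastid medians are -0.16, 0.60 and 0.27, and the mitochondrial medians -0.43, -0.17 and 1.01.

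The 25 mitochondrion-encoded probe sets turned between the pairs. Their median difference was -0.43 in pair 1, -0.17 in pair 2 and 1.01 in pair 3, with 5, 9 and 22 probe sets above 0, and 0.06 over the pairs. In pairs 1 and 2, 13 were lower with MV in both (52%, beside 30.8% of all probe sets) and 2 higher (8%, beside 32.3%). The median level was 5.78, 6.38 and 7.36 in MV arrays, against 6.01, 6.19 and 6.06 in IC arrays and 5.71, 6.31 and 5.58 in controls. MV array 3 was the one that differed from the other 8, and it is also the array with the high 25S ribosomal RNA reading. The part of that array's labelling in these values was not tested. nad4, of respiratory complex I, read 8.34, 9.02 and 10.82 in MV arrays, against 10.47, 10.13 and 9.24 in IC arrays, with differences of -2.13, -1.12 and 1.58 in pairs 1, 2 and 3.

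Of the 25 mitochondrial probe sets, 2 were higher and 2 lower with MV in all pairs (12.4% of all probe sets either way). Among these 4 were nad6 and ccb382, the only ones of the 25 with an unadjusted p under 0.05 by limma. That is 1 higher and 1 lower (1.76% and 2.15% of all probe sets), and they are described as single transcripts. nad6, of complex I, read 5.58, 6.38 and 7.01 in MV arrays, against 4.81, 5.11 and 5.03 in IC arrays and 4.70, 5.03 and 4.47 in controls. All MV arrays lay above all IC and control arrays, and the difference was 1.34 ± 0.33 (SE, 2.53-fold, interval 0.63 to 2.05), with 0.76, 1.27 and 1.98 in the pairs. ccb382, for a protein of cytochrome c maturation, read 7.42, 7.41 and 8.4 in MV arrays, against 9.03, 8.04 and 9.21 in IC arrays and 7.64, 8.60 and 9.30 in controls. It differed by -1.02 ± 0.34 (SE, 2.03-fold lower with MV, interval -1.76 to -0.28). cox1, of cytochrome oxidase, differed by 0.64 (interval -0.07 to 1.35), with -0.04 in pair 1. These symbols come from the array's annotation.

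Outside these lists, other transcripts had one direction in all pairs and the largest differences or the smallest p-values. OASA2, a member of the O-acetylserine (thiol) lyase family of cysteine synthesis, read 9.43, 9.84 and 8.05 in MV arrays, against 8.24, 8.26 and 7.02 in IC arrays and 8.20, 7.09 and 8.24 in controls (1.27, interval 0.20 to 2.34). AT1G79150 read 5.43, 6.09 and 6.47 in MV arrays, against 4.88, 5.10 and 4.57 in IC arrays, with all MV arrays above all IC arrays (1.15, interval 0.65 to 1.64). AT3G29075 was higher with MV by 1.15 and AT4G12530 by 1.02, the first through pair 3 (2.0). AT5G10350 was among the most even, with 6.10, 6.41 and 6.11 in MV arrays, against 5.46, 5.65 and 5.35 in IC arrays and 5.63 to 5.82 in controls (0.72 ± 0.14 SE, interval 0.42 to 1.02). AT1G08410, for a homologue of the yeast ribosome assembly GTPase Lsg1, was higher by 0.66, 0.75 and 1.07, and RRP41L, named for an exosome subunit, by 1.00, 0.30 and 0.63. For AT1G08410 the MV mean lay 0.06 below the control mean and the IC mean 0.88 below it.

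On the lower side, AT2G40460 had the smallest p, with 7.26, 6.56 and 7.18 in MV arrays, against 7.92, 7.41 and 7.81 in IC arrays and 7.80, 7.41 and 7.51 in controls. It was lower with MV by 0.66, 0.85 and 0.63 (mean -0.71 ± 0.13 SE, 1.63-fold, interval -0.99 to -0.43). AT4G02170 read 4.71, 4.47 and 5.14 in MV arrays, against 5.69, 5.92 and 5.56 in IC arrays (-0.95, interval -1.41 to -0.49). In both genes the MV arrays also lay below the controls of their own number. The same was seen in the means of AT5G01210 (-0.83), CPUORF47 (-0.79), CB5-C, a cytochrome b5 (-0.77), AT4G19430 (-0.75), AT5G26280 (-0.73), AT3G07000 (-0.71), AT1G23050 (-0.71), AT2G47440 (-0.69) and AT3G27950 (-0.67), where MV lay 0.33 to 0.83 below the control mean and IC from 0.12 below to 0.38 above it. CPUORF47 and AT5G26280 owed most of their difference to pair 3 (-1.43 and -1.68).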

How the data were processed

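RNA of 18 cultures was measured on ATH1 arrays, and 6 arrays (3 MV, 3 IC) were compared here. Per the labels and the study's methods, the authors made the deposited log2 values with RMA, which includes quantile normalization, in the affy package (versions not given in the sources used here). They were used as deposited. Because RMA sets all arrays to like distributions, a shift of most transcripts together would not show.

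Of 22810 probe sets, 64 control probe sets were left out. The array's annotation named 14010 probe sets and the study's tables of changed transcripts 905 more (in all 14383 with 1 gene, 532 with several), and 7895 had no name here, so lists were measured in part. limma 3.58.1 (R 4.3.3) was fitted to all 18 arrays with 6 groups and a block for arrays that share a set and a number, two-sided, with Benjamini-Hochberg adjustment over 22746 probe sets. The contrast equals the mean of the 3 paired differences. The numbers pair the samples, since the control titles tie them, and MV and IC arrays of one number deviated together (correlations 0.42, 0.58 and 0.16). Lists were described by counts and medians without a set test. Named genes were the 10 largest differences of one sign in each direction, the 5 smallest p-values either way, the 4 or fewer lowest p-values of every list, and fixed heat genes, with further list members named to show their range. Members and lists were chosen with earlier results of these data known. The fit was checked on simulated data. Alternatives covered block, arrays, normalization, filter, prior and left-out pairs. The number of arrays limits the precision. Figures were drawn with matplotlib.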

Additional observations from a re-analysis of the deposited data

How the results depend on the processing

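The count of probe sets past an adjusted p of 0.05 by limma was 0 in all alternatives but one, a trended and robust prior, where it was 1 (DREB2A, adjusted p = 0.0314). Over the alternatives the adjusted p of DREB2A ran from 0.0314 to 1, at differences of 1.47 to 1.74. It was 1 with no replicate block, and also 1 with the number as a random block on the 6 arrays, an alternative chosen after seeing the data. The count with an unadjusted p under 0.05 was 888, against 448 with no replicate block, 474 with a filter on low values, which tests fewer probe sets, and 438 to 1549 (438 without pair 2, 1549 without pair 3) when a pair was left out. With that filter 10742 probe sets had the whole interval within -1 and 1. Leaving out a pair moved the median of the small heat shock proteins to between 0.55 and 0.67, of all heat lists to between 0.19 and 0.39, and of the plastid transcripts to between 0.11 and 0.45. Without pair 3 the median of the endoplasmic reticulum chaperones was 0.002, and that of 3 enzymes that remove reactive oxygen went from -0.003 to 0.04. Those of the plastid RNA polymerase (-0.195) and photosystem II (-0.05) fell below 0. The medians of 3 further lists turned as well. Over the left-out pairs these 3 ran from -0.29 to 0.51 for the early stress factors, from -0.10 to 0.15 for the singlet oxygen markers and from -0.18 to 0.26 for the mitochondrial transcripts, of which 7 of 25 then had a p under 0.05 as lower with MV. Single genes turned as well. WRKY40 (-0.30 to 0.97), STZ (-0.82 to 0.59) and psaC (-1.01 to 1.27) were below 0 and ndhA (-1.44 to 0.13) was above 0 without pair 3. Without pair 1, HSP70 (-0.08 to 0.15) was below 0 and ERF13 (-1.32 to 0.21), CAF1a (-1.06 to 0.03), LOX4 (-1.08 to 0.14) and nad4 (-1.62 to 0.23) were above 0. The cause was not tested. As reported, the adjusted p rounded to 1 for all named genes but DREB2A, so its side of the threshold tells nothing of their stability. Of 36 named genes with an unadjusted p under 0.05, 17 kept it with no replicate block, 24 with the random block and 25, 24 and 23 without pair 1, 2 or 3. The plastid medians by function are given with their ranges above, and with the filter on low values that of the NDH complex was -0.18. GUN4, HSFA2, UGT78D1, RRP41L and the probe set of AT5G41750 fell under that filter.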
